A study of Mus musculus with 19 samples.

Results

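The 9 genes described here are B cell lineage and receptor genes: Ms4a1, Cd79a, Cd79b, Pax5, Cr2, Fcer2a, Cd22, Blk and Cd24a. They were measured by every probe set of the array that names one of them and no other gene, which gave 15 probe sets for 9 of the 18193 genes named in this way. The arrays were Affymetrix Mouse 430 2.0 chips of RNA from pancreatic lymph nodes (PLNs), which drain the pancreas, and from fat of female NOD (NOD/LtJx) mice, a strain that develops autoimmune diabetes spontaneously. There were 19 arrays. Normoglycemic mice (NOR) gave 4 PLN and 2 fat arrays, new-onset diabetic mice (DIA) gave 2 PLN and 2 fat arrays, and diabetic mice given alpha1 antitrypsin (AAT), a serum protease inhibitor, gave 4 PLN and 2 fat arrays. The remaining 3 arrays were of fat from diabetic mice given Power Mix (PM), which combines IL2.Ig, a mutant antagonist-type IL15.Ig and rapamycin. The labels give the groups no transgene or deletion, and their shared treatment text also mentions streptozotocin (STZ) for formerly diabetic mice, a group not among these arrays. Age at sampling, and whether arrays of a group came from different mice, were not given in the sources used here, so the p-values below measure the spread between arrays, which may be technical.

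B cells recognise antigen through the B cell receptor, in which membrane immunoglobulin is paired with the signalling chains CD79A and CD79B, and kinases such as BLK pass the signal on. CR2 (CD21) lowers the threshold for that signal by binding complement fragments, whereas CD22 recruits phosphatases that restrain it. PAX5 is the transcription factor that holds cells to the B lineage, and B cell follicles are a regular part of lymph nodes but not of resting fat.

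The sequences before annotated starts of 3 of the genes are shown because these genes carry either the largest relative change between NOR and DIA PLNs (Cr2) or a match to a motif of a B lineage factor (Cd22 and Cd79a). Each is the 250 bases before 1 annotated start, 5′ to 3′ on the strand of the gene, from RefSeq on build GRCm38.p6. Capitals mark matches to GAGGAA, a core letter string of PU.1 sites, or to CCCNNGGG, a string of EBF1 sites, on either strand.
Cd79a, chr7:24897247-24897496, plus strand: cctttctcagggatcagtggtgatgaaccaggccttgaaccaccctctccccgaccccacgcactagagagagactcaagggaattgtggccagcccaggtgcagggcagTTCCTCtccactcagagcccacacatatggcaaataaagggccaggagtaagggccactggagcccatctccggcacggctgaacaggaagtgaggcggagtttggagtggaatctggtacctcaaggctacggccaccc
Cr2, chr1:195176720-195176969, minus strand: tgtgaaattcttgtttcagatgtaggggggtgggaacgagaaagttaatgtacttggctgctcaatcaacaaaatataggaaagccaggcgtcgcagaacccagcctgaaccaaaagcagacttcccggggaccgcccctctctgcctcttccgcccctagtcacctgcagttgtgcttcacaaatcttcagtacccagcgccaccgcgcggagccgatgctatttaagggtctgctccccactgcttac
Cd22, chr7:30879029-30879278, minus strand: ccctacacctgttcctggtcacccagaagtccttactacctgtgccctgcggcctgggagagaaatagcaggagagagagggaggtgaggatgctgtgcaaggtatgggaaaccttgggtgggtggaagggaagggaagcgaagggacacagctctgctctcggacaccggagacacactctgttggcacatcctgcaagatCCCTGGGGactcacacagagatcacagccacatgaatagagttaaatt
The windows of 5 members were in the table (7 windows, 3 of them for Fcer2a, which has several annotated starts). The Cd79a window ends at the base before the gene, whereas the Cd22 window lies wholly inside the annotated gene (chr7:30865404-30880342) and the Cr2 window mostly inside it (chr1:195136811-195176880), since both precede an internal start. GAGGAA was found in 1 of the 7, starting 140 bases before the start of Cd79a, against 23.3% of all 32851 windows of this length. CCCNNGGG was found in 1 of the 7, starting 48 bases before that start of Cd22, against 11.8% of all windows. The octamer ATTTGCAT, to which OCT2 and its coactivator bind, was in none of the 7 and in 1.6% of all windows. These matches describe letters only. The motifs do not overlap in these windows. Ms4a1 (chr19:11249679-11266149), Cd79b (chr11:106311341-106314562), Blk (chr14:63372837-63417187) and Cd24a (chr10:43579169-43584265) are given here by their gene coordinates on the same build.

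Signals were MAS5 values on a linear scale, scaled by the authors to a common trimmed mean per array, and were compared as log2 values with limma over all 45037 probe sets. A call means a Benjamini-Hochberg adjusted p under 0.05. Counts of members at an unadjusted p under 0.05 are description only, since the share of all probe sets at that threshold alone was not counted. The arrays share a trimmed mean, but their median signal was lower in AAT PLNs (92.3 to 178) than in NOR PLNs (179 to 264.6). The median log2 change of all probe sets was accordingly −0.72 in AAT against NOR PLNs, −0.58 in AAT against DIA PLNs and −0.11 in DIA against NOR in either tissue. Changes within a tissue are therefore given with that median subtracted, called relative changes, while each adjusted p belongs to the unsubtracted change. The ratio of 3′ to 5′ actin signal, which rises as RNA is degraded or incompletely copied, was 15.2 to 15.5 in DIA fat against 3.63 to 4.30 in NOR fat, and that of Gapdh reached 25 in AAT PLNs against 5.55 to 8.01 in NOR PLNs. Tissue identity was checked on markers: the summed adipocyte markers ran from 129735 to 316688 in fat and from 2284 to 28122 in PLNs, and the summed T cell markers from 1817 to 4823 in fat and from 23655 to 45066 in PLNs.

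B cell genes were far higher in PLNs than in fat. In NOR mice, 13 of the 15 member probe sets were called higher in PLNs, where 11.9% of all probe sets were called higher and 22.2% were called in either direction. Cd79a, which encodes the alpha signalling chain of the receptor, had signals of 24.3 and 71.8 on the NOR fat arrays and of 1647, 4372, 2309.7 and 1667 on the NOR PLN arrays. No fat array of any group reached the lowest NOR PLN array, and NOR PLN signal exceeded fat signal 55.0-fold (log2 5.78, SE 0.82, adjusted p = 2.42e-05). The probe sets of Ms4a1, which encodes the surface protein CD20, both read higher in PLNs but by different folds. By 1423226_at, the one of higher mean, NOR fat read 535 and 346 and NOR PLNs 4964, 2556, 4285 and 3062 (8.35-fold, log2 3.06, SE 0.51, adjusted p = 0.000153). By 1450912_at the fold was 128 (log2 7.0, SE 0.62, adjusted p = 4.78e-08), from 61.4 and 36.2 in fat against 7925, 4681, 5781 and 6149 in PLNs. The NOR fat signals of Cd79a and of Ms4a1 1450912_at lay above only 7.93% to 25.5% of the probe sets of their arrays, and no detection calls were used here, so the size of these folds is uncertain and they are not ranked. Cd79b, the beta signalling chain, was 21.9-fold higher (148 and 115 against 2807, 3403, 4313 and 1604, adjusted p = 0.000558). The complement receptor gene Cr2 was 16.6-fold higher (adjusted p = 0.000279) and Fcer2a, which encodes the low-affinity IgE receptor CD23, 10.1-fold higher by 1422122_at (adjusted p = 0.00154). The NOR fat arrays differed widely for both, at 366 and 47.3 for Cr2 and 317 and 40.4 for Fcer2a, so the size of these folds is uncertain too. Cd22 by 1419768_at and Cd24a also differed, from fat signals in the upper part of their arrays: 4.4-fold for Cd22 and 4.26-fold, 4.29-fold and 11.8-fold for the 3 probe sets of Cd24a, a surface glycoprotein of immature and activated lymphocytes that other cells also carry. The second Cd22 probe set, 1419769_at, read low in NOR fat, at 24.4 and 19.6, against 280.5, 652, 765 and 159 in NOR PLNs.

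Blk and 1 probe set of Pax5 were the exceptions. The kinase gene Blk had signals of 1089 and 512 in NOR fat and of 1769, 458, 1179.7 and 583 in NOR PLNs, so that the tissues overlapped (log2 0.21, SE 0.58, adjusted p = 0.835). For Pax5, 1421765_at was 19.7-fold higher in PLNs (32.2 and 11 against 138, 871, 596 and 263, adjusted p = 0.00602). Its NOR fat signals lay above only 11.1% and 5.53% of the probe sets of their arrays, so the size of this fold is uncertain. The other Pax5 probe set, 1454401_at, gave 429 and 279.8 in fat and 56.1, 166, 243 and 184 in PLNs, with both NOR fat arrays above all NOR PLN arrays, as for 25.8% of all probe sets, and no call (log2 −1.28, SE 0.94, adjusted p = 0.351). The Pax5 probe sets did not vary together either, with a Pearson correlation of −0.03 over the 10 PLN arrays and 0.06 over the 9 fat arrays. In PLNs 1421765_at reached 1157 (DIA array 2, above 87.1% of the probe sets of that array). There 1454401_at reached 510 (AAT array 3, above 77.8%). With limma's adjusted p, the tissue count of 13 fell to 9 without fat NOR array 1 and to 8 without fat NOR array 2, which leaves 1 NOR fat array. In bulk tissue, fewer B cells and less RNA per B cell cannot be told apart.

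**Figure D1:**
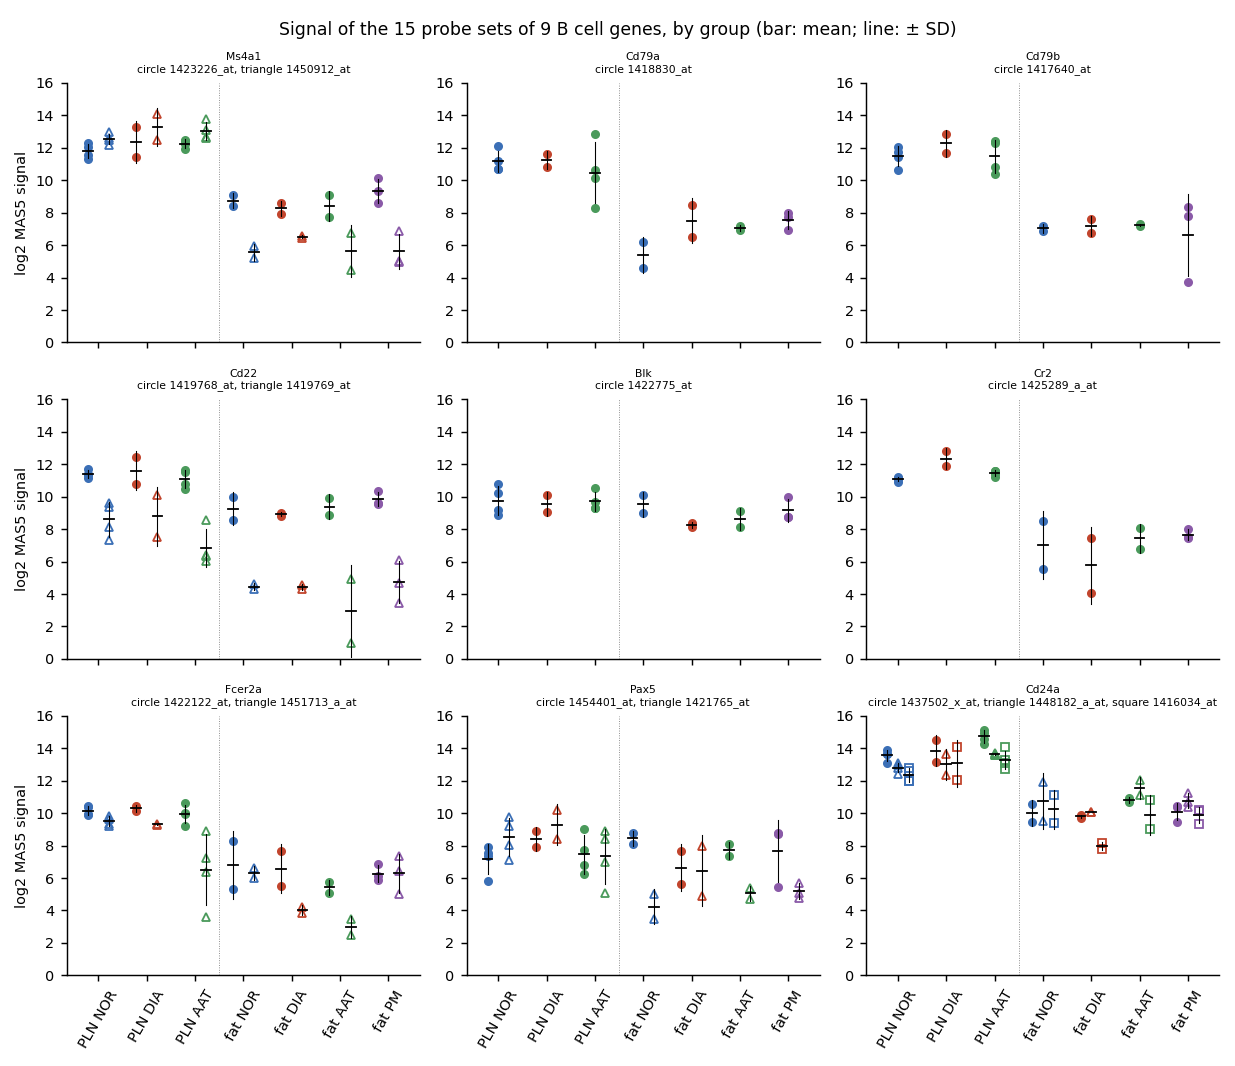
Log2 MAS5 signal (vertical axis) of the 15 probe sets of the 9 genes on every array, by tissue and group (horizontal axis); each point is 1 array, the bar is the group mean and the line ± SD, with filled circles for the probe set of highest mean. The NOR PLN arrays lie above the NOR fat arrays for every gene but Blk and Pax5 when read by the filled circles, and the groups of 1 tissue largely overlap.

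Between NOR and DIA PLNs, no member probe set was called (0 of 15 by limma, with 1 at an unadjusted p under 0.05), where 0.0555% of all probe sets were called. Cr2 stood highest. Its signals were 1937, 2252, 2134 and 2415 on the NOR arrays and 3790.4 and 7164 on the DIA arrays. Both DIA arrays lay above all NOR arrays, as for 8.99% of all probe sets, with a relative log2 change of 1.37 (SE 0.40, 95% interval 0.54 to 2.20, adjusted p = 0.264). The relative change was 0.58 without DIA array 2 and 2.02 without DIA array 1. Cr2 is also carried by follicular dendritic cells, the stromal cells that hold antigen in follicles: the summed signal of the 5 measured markers of 6 listed overlapped (49145 to 68018 in NOR, 53958 to 65330 in DIA), although 1 of them, the follicle chemokine gene Cxcl13, read 5779, 5694, 5827 and 7034 in NOR and 10804 and 16596 in DIA (relative log2 change 1.26, SE 0.54, adjusted p = 0.490). The Gapdh 3′ to 5′ ratio was also higher on the DIA PLN arrays (10 to 10.8) than on the NOR PLN arrays (5.55 to 8.01), while the actin ratio was not (0.88 to 1.10 against 0.94 to 2.31). The part of these in the Cr2 values was not tested.

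The other members showed no shift beyond the spread of the arrays. Relative changes of the genes ran from −0.07 for Blk (SE 0.58) to 1.37 for Cr2. Pax5 1454401_at was close to Cr2 at 1.36 (SE 0.86, adjusted p = 0.688), but its DIA signals of 485 and 237 overlapped the NOR range of 56.1 to 243. The median of the genes was 0.38, with 8 of 9 above the median of all probe sets. That lean rested on a single array. DIA array 2 read above the 10-array mean for all 9 genes and was the highest PLN array for 4 of them, averaging 0.76 log2 units above, whereas DIA array 1 averaged −0.07 and read above the mean for 4 genes. With each array's median subtracted first, the averages were 0.91 and −0.80. Ms4a1 1450912_at, for example, read 5642 on DIA array 1, inside the NOR range of 4681 to 7925, and 17527 on DIA array 2, above it. Cd79b read 3304 and 7409, and Cd22 1419768_at 1746 and 5585, again with array 1 inside or below the NOR range and array 2 above it. DIA array 1 carried more pancreatic acinar signal (14423, summed over the measured markers) than DIA array 2 (1204) or any NOR array (up to 1838). The part of that difference in the B cell values was not tested.

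**Figure D2:**
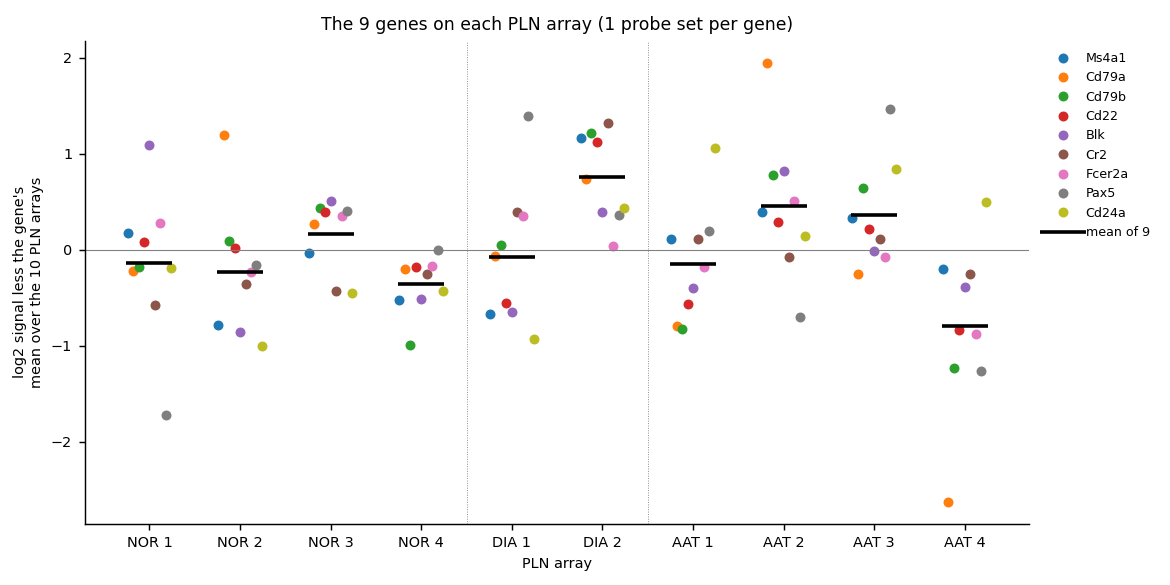
Log2 signal of each of the 9 genes less that gene's mean over the 10 PLN arrays (vertical axis), for each PLN array (horizontal axis), with 1 probe set a gene; black bars are the mean of the 9. DIA array 2 has the highest mean (0.76) and AAT array 4 the lowest (−0.80), but with each array's median subtracted first AAT array 2 is highest (1.33), NOR array 4 lowest (−0.88), and AAT array 4 is at 0.05.

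AAT PLNs differed from NOR PLNs in 1 member probe set of 15, at Fcer2a, where 3.74% of all probe sets were called and 2.64% were called lower. By Fcer2a 1451713_a_at the signals were 813, 919, 652 and 592 on the NOR arrays and 148, 467, 12.2 and 83.8 on the AAT arrays. All AAT arrays lay below all NOR arrays, as for 11.8% of all probe sets, with a relative log2 change of −2.28 (SE 0.77, 95% interval −3.87 to −0.68, adjusted p = 0.0373). The DIA arrays, at 622 and 639, were within the NOR range, and against them the relative change was −2.20 (SE 0.94, adjusted p = 0.178). The second probe set of the gene did not show this. Fcer2a 1422122_at read 1334, 937, 1402 and 980.0 in NOR and 969.7, 1569.5, 1046 and 598 in AAT, which overlapped (relative log2 change 0.51, or −0.18 under quantile normalization, SE 0.38, adjusted p = 0.751). The call held in 4 of the 10 fits that left out 1 array. It was lost without any single NOR array (adjusted p = 0.0791 to 0.129), without AAT array 3 (relative change −1.30, adjusted p = 0.0621) and without AAT array 4 (adjusted p = 0.0800), and also under quantile normalization (−2.48, adjusted p = 0.102) and when each array was centred on its median (adjusted p = 0.179), each by limma.

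Cd24a lay higher in AAT PLNs by all 3 probe sets without passing the test. With 1437502_x_at the signals were 15303, 8669, 12767 and 12981 in NOR, 9165 and 23536 in DIA, and 36393, 19251, 31291 and 24626 in AAT. AAT arrays were all above NOR arrays, with a relative log2 change of 1.88 (SE 0.37, adjusted p = 0.0760), and the adjusted p was 0.0372 when each array was centred on its median, the setting under which the Fcer2a call was lost. The AAT arrays also lay above the NOR arrays by 1448182_a_at, at 13400.4, 12544, 12459.9 and 12521 against 6913, 8584, 8146 and 5523 (relative log2 change 1.55, SE 0.34, adjusted p = 0.148). The size of this difference depended on the scaling: under quantile normalization the relative changes of the 3 probe sets were 0.27, 0.09 and 0.31, with adjusted p from 0.627 to 0.880. Such non-overlap in the higher direction was found for 3.54% of all probe sets. Of the other cells that carry Cd24a, the summed markers of erythroid cells (231 to 659 in NOR, 143 to 599 in AAT), neutrophils (532 to 1897 and 706 to 2406) and epithelium (399 to 746 and 238 to 1208) overlapped. Sums of cells not listed here as Cd24a carriers did not overlap for adipocytes (2878 to 5347 in NOR, 7847 to 28122 in AAT) or macrophages (33965 to 54679 and 56343 to 101827). The part of any of these cells in the Cd24a values was not tested.

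None of the remaining receptor genes was called. Cd79a read 1102, 7389, 1612 and 311 in AAT (SD 1.88 on the log2 scale, against 0.66 in NOR), with arrays above and below the NOR range of 1647 to 4372. AAT array 2, at 7389, was the highest PLN array for Cd79a, and AAT array 4, at 311, the lowest. The inhibitory receptor Cd22 read 280.5, 652, 765 and 159 in NOR and 85.1, 385, 64.3 and 81.0 in AAT by 1419769_at (relative log2 change −1.03, SE 0.73, adjusted p = 0.145), but 1738, 3133, 2969 and 1439 against a NOR range of 2260.2 to 3366 by 1419768_at (relative log2 change 0.42, or −0.58 under quantile normalization, SE 0.40, adjusted p = 0.655). Taking 1 probe set a gene, the 9 relative changes had a median of 0.72, all 9 above the median of all probe sets, but that median was −0.005 with 4 genes above and 5 below under quantile normalization, so no direction is given for the group. Against DIA PLNs, with which the NOR comparison shares its AAT arrays, no member was called (0 of 15 by limma, 3 at an unadjusted p under 0.05, where 0.0999% of all probe sets were called), and the median of the 9 was 0.07, or −0.52 under quantile normalization. Those 3 were Fcer2a 1451713_a_at, Cd22 1419769_at (relative log2 change −1.38, SE 0.89, adjusted p = 0.275) and Cr2. Cr2 read 3099, 2724, 3100 and 2408 in AAT against 3790 and 7164 in DIA. Its log2 change was −0.89 as measured and −0.30 relative (SE 0.40, adjusted p = 0.269), and the relative change against NOR was 1.09 (SE 0.32, adjusted p = 0.486). AAT array 3 carried 269111 of summed acinar signal, over a range of 471 to 2620 on the other AAT arrays, and the part of this in the AAT values was not tested.

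**Figure D3:**
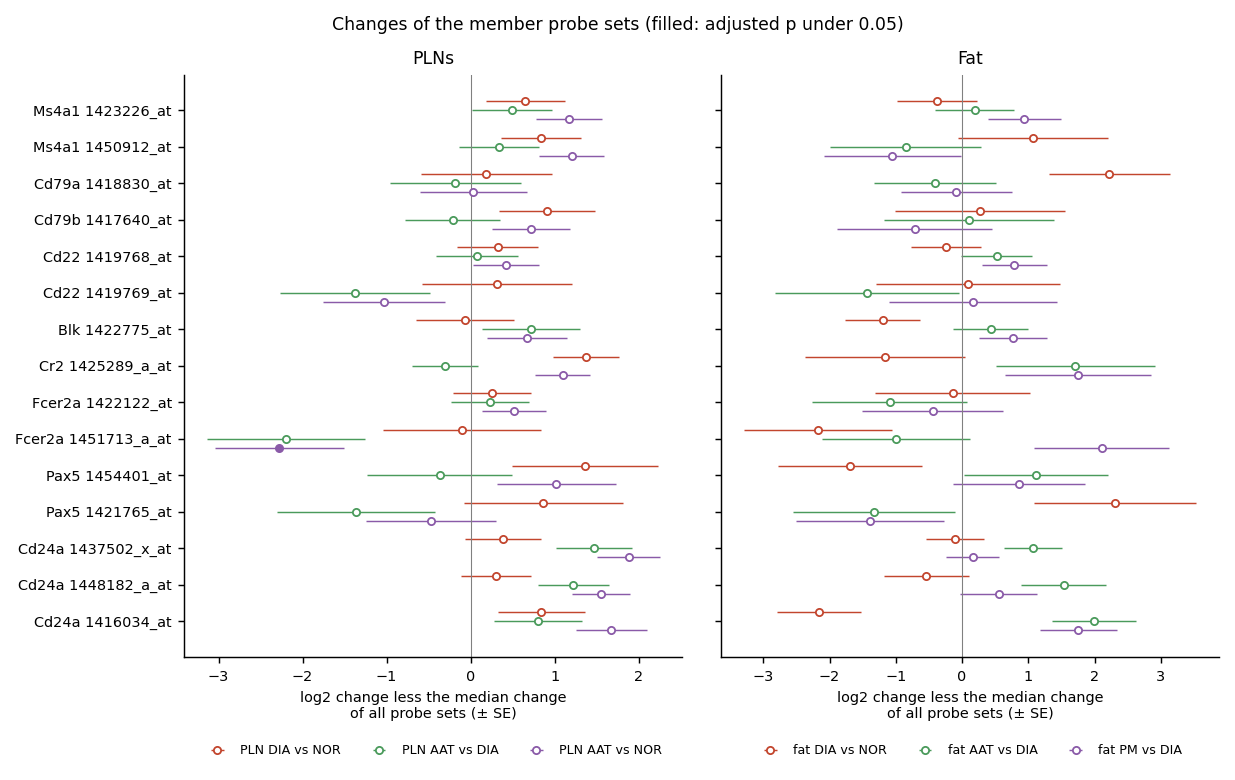
Log2 change of each member probe set less the median change of all probe sets (horizontal axis, ± SE), in 3 PLN and 3 fat comparisons; filled points have an adjusted p under 0.05. The only filled point is Fcer2a 1451713_a_at in AAT against NOR PLNs (−2.28), and under quantile normalization the medians of the 9 genes in the PLN AAT comparisons move from 0.72 to −0.005 (against NOR) and from 0.07 to −0.52 (against DIA).

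In fat, no member probe set was called in any comparison, and none of the 45037 probe sets was (0%). At an unadjusted p under 0.05 there were 3 member probe sets in DIA against NOR, 3 in AAT against DIA and 2 in PM against DIA. All of these also passed the study's fold change threshold of 2, as did 7.67%, 3.85% and 7.69% of all probe sets at both thresholds. In AAT against DIA all 3 were of Cd24a. Cd24a was the most marked. By 1416034_at it read 675 and 2176 in NOR, 287 and 221 in DIA, 1764 and 528 in AAT, and 644, 1157 and 1115 in PM. The DIA arrays were below every other fat array, and such non-overlap was found for 23.2% of all probe sets against NOR, 14.9% against AAT and 18.3% against PM. The relative log2 change was −2.16 in DIA against NOR (SE 0.64, adjusted p = 0.417), 1.99 in AAT against DIA (SE 0.64, adjusted p = 1.00) and 1.75 in PM against DIA (SE 0.58, adjusted p = 0.400). These comparisons share the DIA arrays. Leaving out single arrays moved the first from −3.13 (without NOR array 1) to −1.12 (without NOR array 2), while the second was 0.91 with AAT array 1 omitted and 2.96 with AAT array 2 omitted. All 3 pass the fold change and unadjusted p thresholds of the study's methods, as did 7.67%, 3.85% and 7.69% of all probe sets. Cd24a was picked by the study on these same arrays, so its values here are no independent evidence of its direction.

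The other Cd24a probe sets were less clear. By 1437502_x_at, NOR fat read 700.1 and 1521 and DIA fat 942 and 836, so that the DIA arrays lay between the NOR arrays (relative log2 change −0.11, SE 0.44, adjusted p = 0.911). By 1448182_a_at, NOR fat read 725 and 3929 and DIA fat 1078 and 1080.0 (−0.54, SE 0.64, adjusted p = 0.792). In AAT against DIA fat, however, all 3 probe sets placed both AAT arrays above both DIA arrays (1.07, 1.53 and 1.99), as for 14.9% of all probe sets. The 3 measure 1 gene and correlated at 0.45 to 0.89 over the fat arrays, so they are not independent. The erythroid markers, of cells rich in Cd24a, were lowest on the same arrays: their sum over 4 of 6 listed markers was 898 and 1246 in DIA fat, 3047 and 7036 in NOR, 7215 and 1555 in AAT, and 2783 to 3727 in PM. The fat arrays with the highest Cd24a 1416034_at signal, NOR array 2 and AAT array 1, also had the highest erythroid sums. The other arrays did not all keep this order. PM array 2 had the highest Cd24a 1416034_at signal of the PM arrays (1157) and their lowest erythroid sum (2783). By 1437502_x_at, AAT array 2 read 1656, above NOR array 2 (1521), with an erythroid sum of 1555 against 7036. Neutrophil and epithelial sums in DIA fat lay within the range of the other fat arrays. The DIA fat arrays also had the highest actin 3′ to 5′ ratios, as given above. The part of erythroid cells and of RNA quality in the Cd24a values was not tested.

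**Figure D4:**
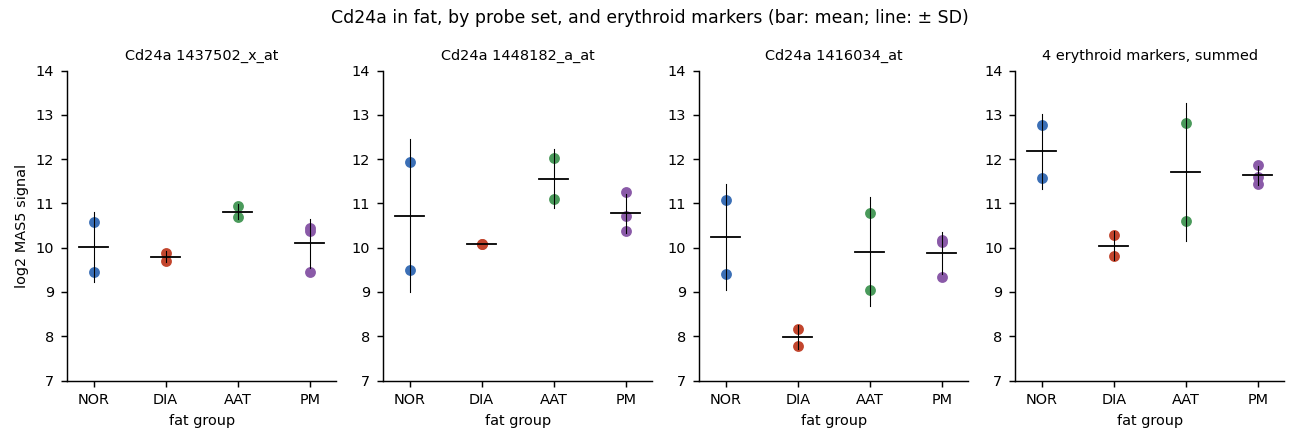
Log2 MAS5 signal (vertical axis) of the 3 Cd24a probe sets and of 4 summed erythroid markers in the 4 fat groups (horizontal axis); points are arrays, bars means and lines ± SD. The DIA arrays are lowest for 1416034_at (287 and 221) and for the erythroid sum (898 and 1246), and lie between the NOR arrays for the other Cd24a probe sets.

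None of the differences of the other genes between fat groups passed the test, and several of their probe sets read low in fat. Cd79a read 24.3 and 71.8 in NOR fat, 91.6 and 358 in DIA, 119.6 and 145 in AAT, and 209.9, 257 and 123 in PM. The NOR arrays were the lowest (DIA against NOR 2.22, SE 0.92, adjusted p = 0.539). Cd79b did not follow: its signals were 148 and 115 in NOR and 107 and 197 in DIA, and 13.3, 321 and 222 in PM. Blk went the other way, with 1089 and 512 in NOR against 331 and 277 in DIA (−1.20, SE 0.56, adjusted p = 0.539). Fcer2a 1451713_a_at read 98.4 and 64.4 in NOR, 14.1 and 18.9 in DIA, 5.71 and 10.9 in AAT, and 87.4, 166 and 32.4 in PM, signals in the lowest 34.2% of their arrays. Taken over 1 probe set a gene, the median relative change was −0.24 in DIA against NOR (2 of 9 above the median of all probe sets), 0.43 in AAT against DIA (7 of 9, or −0.14 with each gene as the mean of its probe sets) and 0.77 in PM against DIA (6 of 9). Single arrays decided these medians: the first ran from −0.76 without NOR array 2 to 0.19 without NOR array 1, the second was 0.09 with AAT array 2 omitted and 0.71 with AAT array 1 omitted, and the third ran from 0.30 without PM array 3 to 0.78 without PM array 1, so no direction is given. AAT and PM fat were not separated from NOR fat or from each other (0 of 15 called in AAT against NOR, PM against NOR and PM against AAT, with 1 at an unadjusted p under 0.05 in each).

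The difference between the tissues in the DIA effect was tested directly and no member was called (0 of 15 by limma, 3 at an unadjusted p under 0.05, where 0.00444% of all probe sets were called). For Cd24a 1416034_at the DIA effect was 3.09 log2 units higher in PLNs relative to all probe sets (SE 0.86, adjusted p = 0.300), with the median difference over all probe sets subtracted, and 3.00 as measured. It ran from 1.74 without PLN DIA array 2 to 4.35 without PLN DIA array 1. The other Cd24a probe sets differed less between tissues. Their relative changes in DIA against NOR were 0.38 in PLNs and −0.11 in fat by 1437502_x_at, and 0.30 and −0.54 by 1448182_a_at. For Pax5 1454401_at the difference was 3.14 (SE 1.43, adjusted p = 0.550), from relative changes of 1.36 in PLNs and −1.69 in fat. The other Pax5 probe set, 1421765_at, went the other way between tissues, with 0.87 in PLNs (SE 0.94) and 2.31 in fat (SE 1.23). For Cr2 the difference was 2.62 (SE 1.10, adjusted p = 0.507), from 1.00 without fat DIA array 2 to 4.28 without fat DIA array 1. The difference in the effect of AAT against DIA gave no call either (0 of 15 by limma, 1 at an unadjusted p under 0.05, Cr2, where 0% of all probe sets were called).

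The members varied only loosely with each other. Over the 10 PLN arrays the 36 pairs of genes had a median Pearson correlation of 0.34, from −0.40 to 0.85, with 29 above 0. Over the 9 fat arrays the median was 0.15, with 22 of 36 above 0. These values are descriptions across arrays that share groups and an amplification, with no test. The genes whose PLN profile was most like the mean of the 9 members, among 10938 ranked, were Ogfod2 (r = 0.88), Trabd (0.88), Hmces (0.88), Lbh (0.88) and Exosc10 (0.86). For Cd24a in fat, with 1437502_x_at over 9 arrays, they were Ppp1r2 (0.95), Cemip2 (0.95), Rbms1 (0.94), Ppm1f (0.93) and Mex3b (0.93). Genes were ranked if their mean over all 19 arrays was at or above the median, so genes dim in 1 tissue could enter. Ogfod2 read 9.05 to 467 in PLNs and 1063 to 2009 in fat. The ranked values were not centred on array medians, so array scaling may enter these correlations. Probe sets of 1 gene agreed best for Cd24a, Ms4a1 and Cd22 in PLNs (r from 0.54 to 0.83), and less for Fcer2a (0.43).

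Other genes of the pathway were read from lists. In NOR PLNs against NOR fat, genes of receptor signalling (6 of 12 measured, 16 listed), receptor inhibition (3 of 9, 10 listed), B cell transcription factors (5 of 12) and homing and survival (11 of 16) were called higher, where 11.9% of all probe sets were. The only gene of these lists called lower was Ebf1, a B lineage factor that fat cells also use (log2 −1.86, named after its value was seen). Early B cell genes gave 1 of 8 (9 listed) called higher, about the share of all probe sets, Il7r, the receptor for IL-7 that T cells also carry. Between NOR and DIA PLNs none of these genes was called, and the list medians of relative change were 0.10, −0.04, 0.31, 0.21 and −0.27 in that order, or −0.16, −0.14, 0.12, −0.05 and −0.34 under quantile normalization.

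In AAT against NOR PLNs the same lists had medians of 0.90, −0.04, 1.09, 0.49 and 0.06, or 0.13, −0.49, 0.16, 0.02 and 0.08 under quantile normalization. Called were 1 of 12 transcription factors (higher) and 1 of 9 inhibitory genes (lower), and none in the other lists. Over all probe sets, 3.74% were called. Pou2af1, the coactivator that joins OCT2 on octamer sites, read 2933, 3908, 3717 and 3248.5 in NOR, 8307 and 16460 in DIA and 9188, 9600.3, 10838 and 7001 in AAT. All AAT arrays lay above all NOR arrays, as for 3.54% of all probe sets. Both DIA arrays did so too, as for 8.99% of all probe sets. The relative change was 2.12 in AAT (SE 0.33, adjusted p = 0.0280) and 1.88 in DIA (SE 0.40, adjusted p = 0.125). The DIA difference passed the test under quantile normalization (1.78, adjusted p = 0.0310) and when only NOR and DIA arrays were fitted (1.88, adjusted p = 0.0418), while the AAT call was lost under quantile normalization (0.81, adjusted p = 0.143) and without any 1 of the NOR arrays or AAT array 3. Siglecg, an inhibitory lectin of B cells, read 1210.2, 1007, 1186 and 459 in NOR and 269.6, 432, 102 and 322 in AAT (−1.14, SE 0.50, adjusted p = 0.0450). That call was lost in 6 of the 10 fits without 1 array, and under quantile normalization (−1.54, adjusted p = 0.162).

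Among the genes of late B lineage stages, Jchain and Rgs13 were called higher in AAT than in NOR PLNs. Jchain, the joining chain of secreted IgA and IgM made by plasma cells, read 4241, 2594, 2619.8 and 2409.7 in NOR, 5125 and 10937 in DIA, and 14821, 16669.8, 33482 and 19458 in AAT. Every AAT array lay above every NOR array, as for 3.54% of all probe sets (relative log2 change 3.52, SE 0.37, adjusted p = 0.00203). Rgs13, a signalling regulator typical of germinal centre B cells, read 170.0, 55.7, 65.8 and 80.1 in NOR, 421 and 1367 in DIA, and 2546, 583, 953 and 859 in AAT (4.37, SE 0.57, adjusted p = 0.00670). Both were called in all 10 fits that left out 1 array, and under quantile normalization (2.17 for Jchain and 4.37 for Rgs13, adjusted p = 0.00960 and 0.00817). Both genes also lay above all NOR arrays in DIA, as for 8.99% of all probe sets, without a call (Rgs13 3.29, adjusted p = 0.110, and Jchain 1.49, adjusted p = 0.280). AAT against DIA was not called for either (Rgs13 1.05, adjusted p = 0.755, and Jchain 2.00, adjusted p = 0.160). They were 1 of 6 measured plasma cell genes and 1 of 5 germinal centre genes (6 listed) that were called in AAT against NOR, where 3.74% of all probe sets were called, with list medians of 1.32 and 2.20 (0.86 and 2.35 under quantile normalization), against 0.44 and 2.20 in DIA against NOR. Ms4a1, which plasma cells lose, read 7925, 4681, 5781 and 6149 in NOR and 14286, 6353, 8764 and 6216 in AAT by 1450912_at, with overlap (relative log2 change 1.20, or −0.15 under quantile normalization, SE 0.39, adjusted p = 0.457). In fat, none of the genes of these lists was called in any comparison.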

How the data were processed

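RNA of 19 PLN and fat samples was amplified, made into biotin-labelled target and hybridised to Affymetrix Mouse 430 2.0 arrays, 1 sample an array. The deposited values are MAS5 signal intensities on a linear scale, which the authors scaled to a common trimmed mean per array (submitters' processing notes, no version). The study's methods describe RMA and rank products instead, so these values are not those of that analysis. Here signals below 1 were set to 1 and taken to log2, 64 control probe sets were left out, and limma 3.58.1 (R 4.3.3, eBayes with trend) was fitted per tissue, or over all arrays between tissues, with Benjamini-Hochberg adjustment over 45037 probe sets. No reads lie behind arrays, so the number of arrays limits precision. Of the probe sets, 34945 name 1 gene, 932 several and 9160 none. A gene with several probe sets was represented by that of highest mean, and the others are given where they differ. From the other lists, up to 3 genes of smallest p and 2 of highest mean could be named. The code was tested on simulated data. The members and lists were chosen with earlier results of these data known. Scaling, filters, floors, the variance trend, replicate blocks and single arrays were varied.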

Additional observations from a re-analysis of the deposited data

Results flagged for a closer look

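Of 30 groups of 4 arrays tested (15 probe sets in NOR and AAT PLNs), 2 held an array far from the others, where chance gives about 5% of groups. The gap of AAT PLN array 2 to the nearest other array took up 0.844 of the log2 range for Cd22 1419769_at (385 against 85.1), and that of AAT PLN array 1 took up 0.907 for Cd24a 1448182_a_at (13400.4 against 12544, a difference of small size since the other arrays lay close together).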

How the results depend on the processing

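The single call in AAT against NOR PLNs, Fcer2a 1451713_a_at, became 0 calls under both filters on dim probe sets (at the 40th and 60th percentile of mean signal, which remove it), under quantile normalization (adjusted p = 0.102), with a floor at the 20th percentile (0.0646) and without the variance trend (0.117). Under median centring it was also lost (0.179) while Cd24a 1437502_x_at was called (0.0372), so the count stayed at 1. The count ran from 0 to 1 when single arrays were left out. The tissue count of 13 ran from 8 to 13 without single arrays and was 6 with the replicate block, under which Blk was −0.13. The array numbers share no source in the labels, and the numbered arrays of AAT and NOR PLNs correlated from −0.041 to 0.281, so the block is given here only. With crossed numbers, a pairing chosen after seeing the data, AAT against NOR fat gave 0 member calls. In AAT against NOR PLNs the direction turned for Cd22 1419768_at (−0.071 at the 60th percentile filter, −0.58 with quantile normalization, −0.35 as the mean of its probe sets), Fcer2a 1422122_at (−0.18 with quantile normalization, −0.93 as the mean) and Ms4a1 1450912_at (−0.15 with quantile normalization). Pax5 between tissues was 1.64 as the mean of its probe sets. Leaving out single arrays moved Blk from −0.93 to 0.64 in DIA against NOR PLNs and from −0.10 to 0.70 between tissues, Cd24a 1416034_at from −0.52 to 2.06 in DIA against NOR PLNs, and in DIA against NOR fat Cd24a 1437502_x_at from −0.80 to 0.65 and 1448182_a_at from −1.88 to 0.88. The causes were not tested. The other counts of member calls stayed at 0 under the alternatives run. With 2 arrays in 4 of the 7 groups, small changes were not detectable.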
